A study of Mus musculus with 8 samples.

Results

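AQP7+ endothelial cells (ECs) are capillary cells that carry lipid-handling genes, and 338 of them were found among 8204 cells sequenced from breast tumours of mice. A cell was counted as an AQP7+ EC when it had at least 1000 genes detected, at least 1 UMI of the endothelial gene Pecam1, at least 4 of the 6 markers Aqp7, Lpl, Tcf15, Cd36, Car4 and Meox2, and fewer than 2 of the proliferation genes Mki67, Top2a and Birc5. The members were thus chosen by the measured UMIs of these 10 genes. The same gate without the marker condition held 5907 cells, here called gated ECs, and the 5569 of these with fewer than 4 markers are called other ECs. The data were single-cell RNA sequencing (scRNA-seq) of FACS-sorted live CD31+ CD45- cells, taken 3 h after an intratumoural (i.t.) injection. There were 8 libraries in 4 groups of 2. Spontaneous PBS and spontaneous cGAMP came from MMTV-PyMT mice, in which the mouse mammary tumour virus promoter drives the polyoma middle T oncogene in mammary epithelium, injected with PBS or with 3'3'cGAMP, an agonist of the innate immune sensor STING. Implanted PBS and implanted cGAMP came from mice given cultured MMTV-PyMT tumour cells into the mammary fat pad, with the same injections. The labels give C57BL/6 as the strain of every library whereas the methods name FVB mice, so the strain is not settled. The labels call all mice adult, and the methods give females, 9 weeks old at treatment for the spontaneous model and 8 to 9 weeks old at implantation, with 2 mice for each group, and no label says more about how mice and libraries correspond.

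Lipid-handling capillary ECs take up fatty acids that lipoprotein lipase (Lpl), held on the capillary wall by Gpihbp1, releases from circulating triglycerides. Cd36 brings fatty acids into the cell and the binding proteins Fabp4 and Fabp5 carry them through it, while Aqp7 is a channel for water and glycerol. Meox2 and Tcf15 are transcription factors that act together in fatty acid uptake by heart capillaries, Car4 is a carbonic anhydrase of the capillary surface, and Pparg is a nuclear receptor for fatty acids that drives many of these genes. In mouse (GRCm38) Aqp7 lies on chromosome 4 from 41033074 to 41048139 on the minus strand, and Fabp4 on chromosome 3 from 10204088 to 10208576 on the minus strand.

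The number of AQP7+ ECs was 19 and 26 in the spontaneous PBS libraries and 58 and 58 after cGAMP. It was 53 and 42 in the implanted PBS libraries and 46 and 36 after cGAMP. As a share of gated ECs this was 3.58% ± 1.78 (SD, n = 2) after PBS and 9.14% ± 0.0102 after cGAMP in spontaneous tumours. In implanted tumours it was 5.55% ± 1.31 after PBS and 5.54% ± 1.34 after cGAMP. The spontaneous cGAMP libraries stood highest and the implanted groups overlapped. Since finding a marker depends on how many UMIs a cell has, 4000 UMIs were drawn from each cell and the gate applied again. The shares were then 1.82% ± 1.0 and 2.27% ± 1.23 in the spontaneous groups after PBS and cGAMP, and 1.82% ± 0.915 and 1.42% ± 0.682 in the implanted groups, and libraries of every group overlapped. The depth of the AQP7+ ECs differed in the same direction as the undrawn shares. Their median UMIs per cell were 8778 and 9186 after PBS and 19449 and 21574 after cGAMP in spontaneous tumours. In implanted tumours they were 15563 and 15036 after PBS, then 12444 and 18356 after cGAMP. The shares are a description with no test.

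**Figure D1:**
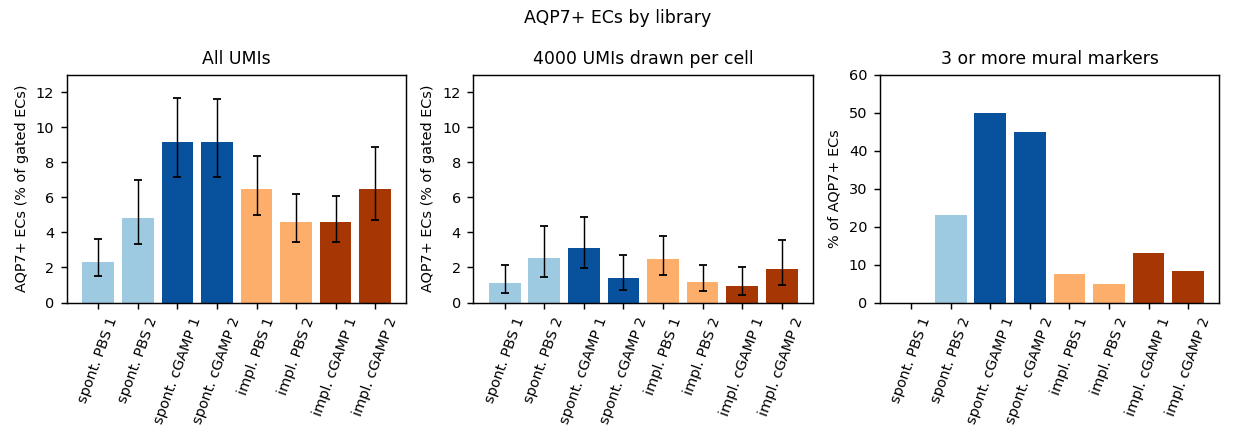
Share of AQP7+ ECs among gated ECs in each library at full depth (left) and after drawing 4000 UMIs per cell (middle), with 95% Wilson intervals that cover counting error only, and the share of AQP7+ ECs with 3 or more mural markers (right). The spontaneous cGAMP libraries are highest on the left at 9.15% and 9.13%, overlap with the other libraries in the middle, and hold 50% and 44.8% of cells with mural markers on the right.

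The spontaneous groups stood apart in another way. Of 8 marker genes of mural cells, the pericytes and smooth muscle cells that wrap vessels, 3 or more were found in 29 of 58 and 26 of 58 AQP7+ ECs of spontaneous cGAMP. In spontaneous PBS the counts were 0 of 19 and 6 of 26, in implanted PBS 4 of 53 and 2 of 42, and in implanted cGAMP 6 of 46 and 3 of 36. The summed level of the 8 mural genes in AQP7+ ECs was 181 and 2485 CPM (UMIs scaled to the same total count in each cell and averaged over the cells of a library) in spontaneous PBS, 2437 and 3502 in spontaneous cGAMP, and 196 to 522 in the implanted libraries, against 216 to 789 in other ECs. Spontaneous PBS replicate 2 and both spontaneous cGAMP libraries were thus high, and the mural-marked cells of spontaneous cGAMP were deep, with medians of 23456 and 28032 UMIs. The 6 fibroblast genes summed to 386 and 695 CPM in spontaneous cGAMP and to 2.25 to 128 CPM elsewhere. Epithelial genes summed to 74.5 to 558 CPM and immune genes to 2.39 to 72.5 CPM, where 3 of 46 and 2 of 36 AQP7+ ECs of implanted cGAMP, and 0 in the other libraries, had 3 or more of 8 immune markers. Low epithelial counts were widespread, and 8.33% to 60.3% of the AQP7+ ECs of a library had a UMI of 3 or more of 8 epithelial genes. Fat cells share Aqp7, Lpl, Cd36, Fabp4 and Pparg with these ECs. Genes of fat cells summed to 0 to 97.9 CPM in AQP7+ ECs and to 0.640 to 18.4 CPM in other ECs. The sum was below that of other ECs in spontaneous PBS replicate 1 and spontaneous cGAMP replicate 2. Car3 and Cfd averaged 11.4 and 11.9 CPM against 1.66 and 1.32 in other ECs. The fat cell hormone adiponectin (Adipoq) read at most 0.681 CPM in a library. In implanted PBS 1 of 53 and 1 of 42 AQP7+ ECs had 3 or more fat cell markers. The part of these markers in the results below was not tested beyond leaving out such cells. The total of each comparison below, and the results that change, are therefore also given without the cells that hold 3 or more mural or fibroblast markers, which leaves 19, 20, 29 and 32 cells in the spontaneous libraries and 49, 40, 40 and 32 in the implanted ones. They are also given for a gate on even depth, namely at least 3 of the 6 markers among 4000 drawn UMIs, which leaves 28 to 74 cells per library. The 7 barcodes found in more than 1 library included 0 AQP7+ ECs.

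The markers used by the gate are described here without a test. Cd36 was found in all 338 AQP7+ ECs, Meox2 in 90.5%, Tcf15 in 89.1%, Lpl in 56.8%, Aqp7 in 55.6% and Car4 in 49.4%. In other ECs the shares were 56.8% for Cd36, 42.3% for Meox2, 13.9% for Tcf15, 4.36% for Lpl, 2.05% for Aqp7 and 10.4% for Car4, at a median of 12319 UMIs against 15680 in AQP7+ ECs. In the 289 cells with at least 1000 genes and no Pecam1 UMI, at a median of 3123 UMIs, Aqp7 was found in 2.42%, near the share in other ECs, whereas Lpl was found in 24.9% and Tcf15 in 14.9%. Cd36 is thus common to many tumour ECs. The share of Aqp7 in other ECs was small, which the gate partly sets, since Aqp7 is among its markers. An Aqp7 UMI was found in 188 of the 338 AQP7+ ECs, so the name does not mean that each cell held one. The mean level of Aqp7 in spontaneous tumours was 153 and 243 CPM after PBS and 100.3 and 140.0 after cGAMP, and in implanted tumours 147 and 169, then 96.5 and 88.3. Lpl read 621 and 788, 266 and 212, 185 and 241, and 96.4 and 223 CPM in the same order. Lpl read highest in spontaneous PBS, where the AQP7+ ECs were the shallowest, at 8778 and 9186 median UMIs per cell. The gate asks for at least 4 of the 6 markers, and 1 UMI is more CPM in a shallow cell. The levels of Aqp7, Lpl and Car4 given here are thus not comparable between groups of unlike depth. Car4 read 508 and 247 CPM in implanted PBS and 119 and 252 in spontaneous PBS, which overlapped, and 77.9 and 52.4 CPM in spontaneous cGAMP.

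The number of markers graded the cells. Of the 338 AQP7+ ECs, 232 held 4 markers, 72 held 5 and 34 held 6, and 797 gated ECs stood just outside with 3. Fabp4, which the gate did not use, had a mean over 8 libraries of 1182 CPM at 0 markers, 8024 at 3, 14831 at 4, 29515 at 5 and 41474 at 6. Fabp5 read 725, 1191, 2453 and 4564 CPM at 3, 4, 5 and 6 markers. Timp4, an inhibitor of matrix metalloproteinases, read 6.24, 36.0, 251 and 328 CPM, and Mgll, the lipase that cleaves monoglycerides, 717, 1069, 2082 and 3221 CPM. From 3 markers on, the means of these 4 genes over libraries were higher with each further marker. For Timp4 the SD over libraries was 305 CPM at 5 markers and 569 CPM at 6, above the means. A library held 4 to 17 cells with 5 markers and 2 to 7 cells with 6. Rgs5, a pericyte gene, went the other way within the gate, with 814 CPM at 4 markers and 392 and 393 CPM at 5 and 6. Kcne3 and Ptn, genes of angiogenic tumour capillaries, fell off from 55.7 and 38.7 CPM at 3 markers to 12.6 and 1.41 CPM at 4, and both were at 0 with 6. The cells with 4 markers were thus the least like the rest of the gate in lipid genes, at a median of 18192 UMIs per cell against 12232 and 12161 with 5 and 6.

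Outside the rule, the 20 genes highest in AQP7+ ECs relative to other ECs of the same library included several that handle lipids. This is a description, since the same cells chose the members. The median log2 ratio over 8 libraries was 2.51 for Timp4, 2.41 for Fabp4, 2.36 for Fabp5, 2.21 for Angptl4 (a secreted inhibitor of Lpl), 1.71 for Pparg and 1.63 for Mgll. Fabp4 read 25924 and 32590 CPM after PBS and 16903 and 17460 after cGAMP in spontaneous tumours, and 21712 and 22542, then 12869 and 15957 in implanted ones. In other ECs it read 2026 to 5445 CPM. Every library of AQP7+ ECs was above every library of other ECs. Pltp, which transfers phospholipids between lipoproteins, followed at 1.68, the fatty acid hydroxylase gene Cyp4b1 at 2.20 and Thrsp, a gene of lipid synthesis, at 1.82. The 20 also held genes with other roles or roles not given here, Slc26a10 (2.44), Ablim3, Fmo1, Efnb1, Sult1a1, Spaar, Cldn15, Fmo2, Tpst1 and C1qtnf9 (1.52 to 1.99). Rgs5 was among them too, at 1.65, and at 1.14 without the mural or fibroblast-marked cells. With the genes of the rule included, 228 genes were on the higher side in all 8 libraries and 333 on the lower side. A level of 50 CPM was asked of AQP7+ ECs for the higher side and of other ECs for the lower side. The 2 counts thus rest on different sets of genes. No total stands beside them, so they give no share against which to set the list counts below.

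**Figure D2:**
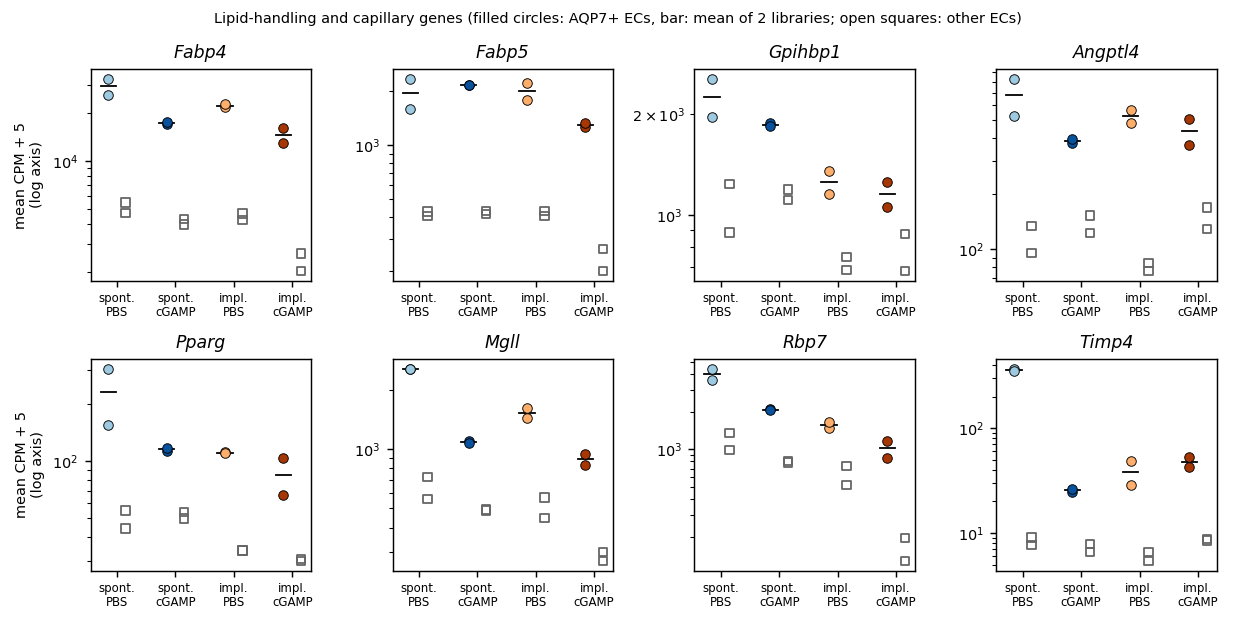
Mean level of 8 lipid-handling and capillary genes in AQP7+ ECs (filled circles, 1 per library, bar at the mean of 2) and in other ECs (open squares) of the 4 groups, on a log axis of CPM + 5. AQP7+ ECs lie above other ECs in every library for all 8 genes, and Timp4 is at 364 and 349 CPM in spontaneous PBS and at 19.6 to 48.4 CPM in the other groups.

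Among 18 genes of fatty acid uptake and transport, Fabp4, Fabp5, Angptl4, Cav1, Cav2, Scarb1 and Gpihbp1 were higher in AQP7+ ECs in all 8 libraries, by median log2 ratios of 0.69 to 2.41. The acyl-CoA synthetases Acsl1, Acsl3, Acsl4 and Acsl5 and the transporters Slc27a1, Slc27a3 and Slc27a4 had medians between -0.61 and 0.22. Vldlr and the lipase maturation factor gene Lmf1 had medians of -1.12 and -0.83. Of the triglyceride and lipolysis genes, Mgll, Lipe, Plin2 and Pnpla2 were higher in all 8 libraries. Of 16 genes of PPAR signalling and fatty acid oxidation, Pparg, Ucp2, Cpt2, Hadha and Hadhb were higher in every library, and apart from Pparg their medians were 0.29 to 0.82. Ppard, another PPAR, was lower in every library with a median of -0.62, and the other 10 had libraries on both sides of 0 or at 0. Of the 19 capillary genes Timp4, C1qtnf9, Rbp7, Cd300lg, Sgk1, Btnl9, Bcam, Rgcc, Gpihbp1 and Tspan7 were higher in all libraries, and Ramp3 and Emcn lower in all, with medians of -2.27 and -0.58. Rbp7, a retinol-binding protein, had a median of 1836 CPM against 755 in other ECs.

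The lower side held genes of other vessel types. The lymphatic genes Ccl21a, Lyve1, Mmrn1 and Pdpn had medians over libraries of 0 CPM in AQP7+ ECs, and Prox1 of 0.753 CPM. Flt4, of the same list, had a median of 47.8 CPM against 103.6 in other ECs. The summed level of the lymphatic list was 33.8 to 75.1 CPM against 484 to 1895 in other ECs. Ptn, Kcne3 and Esm1, genes of tip and sprouting tumour capillaries, had medians of 1.39, 4.50 and 5.18 CPM against 179, 120.4 and 93.2. Igfbp3, which binds insulin-like growth factors, read a median of 265 against 1719 CPM, and Insr, the insulin receptor, 96.4 against 215. Of 10 arterial genes, Gja5 (-0.94), Clu (-1.05) and Efnb2 (-0.49) were lower in all 8 libraries by their median ratios, Bmx and Mgp had medians of -1.17 and -3.06, and Gja4, Hey1, Stmn2, Fbln5 and Sema3g had medians of -0.15 to 0.39 with libraries on both sides of 0. Of 8 venous genes, Ackr1, Selp and Lrg1 were lower in all 8 libraries, with medians of -1.44, -0.57 and -0.84. Nr2f2, a venous transcription factor, read a median of 133 against 131 CPM, and its median ratio was -0.70 without the mural or fibroblast-marked cells. A cell carried an arterial, venous or tip set when it held at least 3 of its 6 genes and more than of either other set. By this count 11.9% to 41.7% of the AQP7+ ECs of a library carried the arterial set, 24.1% to 54.8% the venous set and 0% to 12.1% the tip set. Of the 5569 other ECs of all libraries, 1367 carried the arterial set, 2148 the venous set and 519 the tip set. The arterial and venous sets were thus common in both and do not set AQP7+ ECs apart.

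The first tested comparison was cGAMP against PBS in AQP7+ ECs of spontaneous tumours. The level of a gene was the mean CPM over the AQP7+ ECs of a library, and limma was fitted to log2(CPM + 5) of all 8 libraries, so differences are on that scale and are understated for low genes. Of 9237 genes tested, 224 (2.43%) were higher and 104 (1.13%) lower after cGAMP at an adjusted p under 0.05, which is 3.55% in either direction. Of 29 type I interferon response genes tested, 27 were higher and none lower, with a median log2 difference of 2.52 against 0.01 over all genes tested, and 2.51 with the 4 genes at 0 UMIs in a group set at their bound. Without the mural or fibroblast-marked cells 25 were higher, and in the gate on even depth 28. Irf7, the transcription factor that amplifies interferon production, rose from 102 and 49.5 CPM to 1640 and 1485, a log2 difference of 4.35 ± 0.29 (SE) with an adjusted p of 1.56e-06. Isg15, a ubiquitin-like modifier, read 93.0 and 80.8 CPM after PBS and 1517 and 1408 after cGAMP, a difference of 4.0 ± 0.20 (adjusted p = 1.73e-07). Ifit3, which blocks viral RNA translation, read 22.1 and 4.43 CPM and then 327 and 391, a difference of 4.50 ± 0.38 (adjusted p = 8.07e-06). For all 3 genes each cGAMP library was above each PBS library, as was so for 22.9% of all genes tested.

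Promoter stretches of 4 of these response genes are shown because they hold GAAA, then 2 bases of any kind, then GAAA, the core of the interferon-stimulated response element a DNA element of interferon-induced genes. The sequences are from RefSeq (GRCm38.p6), 30 bases each on the strand of the gene, with matches on either strand in capitals, and overlapping matches joined. The Isg15 stretch holds 3 overlapping matches at chr4:156200871-156200900 (minus strand), the Ifit1 stretch 2 at chr19:34640785-34640814 (plus strand), the Ifit3 stretch 1 at chr19:34583363-34583392 (plus strand) and the Cxcl10 stretch 1 at chr5:92349083-92349112 (minus strand).
Isg15: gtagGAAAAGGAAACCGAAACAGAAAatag
Ifit1: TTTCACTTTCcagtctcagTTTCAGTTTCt
Ifit3: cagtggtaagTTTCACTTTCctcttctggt
Cxcl10: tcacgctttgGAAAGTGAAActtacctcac
In windows of 300 bases, from 250 before to 50 after a gene start, 14 of the 22 type I interferon genes with an entry held the letters on either strand, 7 of 20 genes of the interferon-gamma and antigen presentation list, 1 of 12 fatty acid uptake genes, 0 of 13 triglyceride genes, 0 of the 4 gate markers with an entry, and 3.99% of all 27025 genes. A match of letters describes the window and is not a bound site. Irf7 has no match in its window.

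The interferon-gamma and antigen presentation genes also rose in spontaneous tumours. Of 25 tested, 22 were higher and none lower, with a median log2 difference of 1.82, and 17 were higher without the mural or fibroblast-marked cells and 18 in the gate on even depth. The chemokine Cxcl9, which draws T cells, rose from 49.1 and 120.5 CPM to 908 and 1225, a difference of 3.69 ± 0.31 (adjusted p = 7.53e-06). Cxcl10, its relative, had 1 UMI in all after PBS and 133 and 219.6 CPM after cGAMP, 135-fold by UMIs with a 95% counting interval of 24.1 to 5332 (log2 difference 4.72 ± 0.39, adjusted p = 7.53e-06). Ccl5, another T cell chemokine, had 1 UMI after PBS and read 879.6 and 633 CPM after cGAMP, with an adjusted p of 0.000252. Its 2405 and 1083 UMIs were spread unevenly, since 32 of 58 AQP7+ ECs in each library had any, and a single cell held up to 788. B2m, the light chain of MHC class I, rose from 1388 and 1677 to 4606 and 4912 CPM. Cd74, the invariant chain of MHC class II, had 0 UMIs after PBS and 57.2 and 84.7 CPM after cGAMP, at least 16.1-fold higher if the PBS group is set at a floor of 3 UMIs, and its adjusted p of 9.97e-05 was 0.0846 without the mural or fibroblast-marked cells.

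Some lipid and capillary genes fell in spontaneous tumours after cGAMP, though most members of each such list did not pass. Timp4 read 364 and 349 CPM after PBS and 19.6 and 21.6 after cGAMP, a difference of -3.82 ± 0.29 (adjusted p = 4.81e-06), and -3.34 without the mural or fibroblast-marked cells and -2.77 in the gate on even depth. A Timp4 UMI was found in 9 of 19 and 10 of 26 AQP7+ ECs after PBS and in 7 of 58 and 6 of 58 after cGAMP. Timp4 remained called in all 22 alternative settings. Mgll read 2542 and 2533 CPM and then 1094 and 1066, a difference of -1.23 ± 0.11 (adjusted p = 1.66e-05), and it too was called in all 22 alternatives. Apoe, a lipoprotein component, read 1734 and 1267 and then 439.9 and 436 CPM, a difference of -1.75 ± 0.15 (adjusted p = 8.65e-06), and was likewise called in all 22. These 3 genes did not overlap between the groups, as was so on the lower side for 22.8% of all genes tested.

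Of 14 genes of fatty acid uptake, Fabp4 alone was lower (-0.76 ± 0.11, adjusted p = 0.00125) and none was higher, with a list median of -0.24. Fabp4 did not pass without the mural or fibroblast-marked cells (-0.47, adjusted p = 0.0833) or in the gate on even depth (-0.35, adjusted p = 0.113). Of 13 triglyceride genes, Mgll, Pnpla2 (the first lipase of triglyceride breakdown) and the water and glycerol channel Aqp1 were lower, with a list median of -0.39, and of those Pnpla2 had an adjusted p of 0.149 and 0.57 in the same 2 settings. Of 14 genes of PPAR signalling and fatty acid oxidation none was called in either direction. Of 19 capillary genes 5 were lower, Timp4, Sgk1, Rbp7, Ptprb and Cd300lg, and none higher, with a median of -0.52. The count was 6 without the marked cells and 2 on even depth, with a median of -0.27 in the latter. Ptprb, a phosphatase that restrains the TIE2 receptor, was also lower without the marked cells and on even depth, at -1.03 and -0.69, whereas Cd300lg passed at an adjusted p of 0.0424 and in 6 of 22 alternatives. The AQP7+ ECs of spontaneous PBS were the shallowest, at 8778 and 9186 median UMIs, and 31.6% and 46.2% of them held 5 or 6 markers against 37.9% and 29.3% after cGAMP. The part of depth in these differences was not tested beyond the gate on even depth.

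Pericyte and matrix genes were also higher in spontaneous tumours after cGAMP, where mural-marked cells were most frequent. Of 8 mural genes Kcnj8 and Abcc9, subunits of one potassium channel, were higher with a list median of 2.29, and Col1a1 of 3 fibroblast genes. Without the marked cells 3 mural genes and 0 fibroblast genes were left to test, none was called, and the median of those 3 was 0.67. Mgp, a matrix protein, read 12.9 and 26.5 CPM after PBS and 255 and 606 after cGAMP, a difference of 4.07 ± 0.48 (adjusted p = 0.000223) that was 1.20 (adjusted p = 0.469) without the marked cells and -0.64 (adjusted p = 0.513) on even depth. Serping1, a complement inhibitor, went from 4.31 ± 0.75 to 1.81 with an adjusted p of 0.0665 without them. Of the tip genes Pgf, Mcam and Plvap were higher. Of these Plvap, the diaphragm protein of fenestrated capillaries, was called without the marked cells and on even depth (0.93 and 0.90). None of the tip genes was called without cells holding 3 or more markers of any other type. Of 224 and 104 calls, 224 of the 328 were shared with the 293 made without the marked cells (68.3% of the first and 76.5% of the second) and 152 with the 215 made on even depth, with none in the opposite direction. Without cells holding 3 or more markers of any other type, 260 genes were called, and 142 of these were among the 328. The count of 328 rested on single libraries, and was 621 and 1239 without spontaneous PBS replicate 1 and 2, and 136 and 114 without spontaneous cGAMP replicate 1 and 2. The lone library of a group was then assumed to vary like the others.

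**Figure D3:**
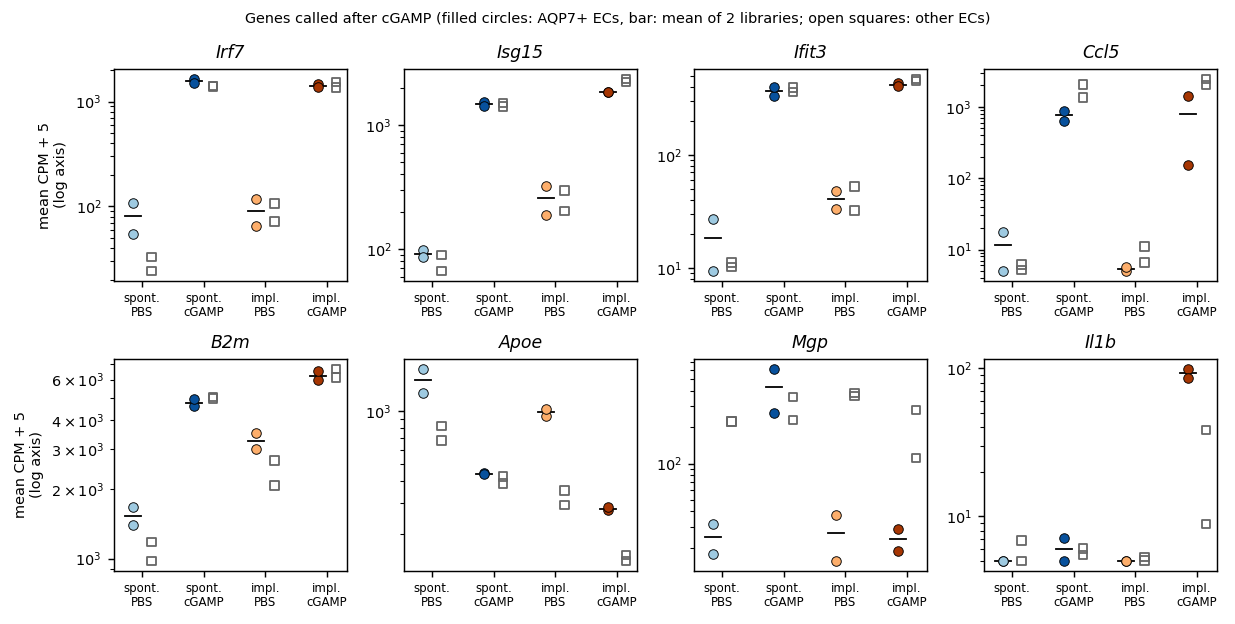
Mean level of 8 genes called after cGAMP in AQP7+ ECs (filled circles, 1 per library, bar at the mean of 2) and in other ECs (open squares), on a log axis of CPM + 5. Irf7, Isg15, Ifit3, Ccl5 and B2m are higher after cGAMP in both models, Apoe is lower in both, Mgp is high in AQP7+ ECs of spontaneous cGAMP, and Il1b is seen after cGAMP in implanted tumours.

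In implanted tumours, cGAMP was followed by fewer calls. Of 9237 genes, 81 (0.877%) were higher and 45 (0.487%) lower, 1.36% in all. Of 29 type I interferon genes 21 were higher and none lower, with a median of 2.0 against -0.04 over all genes, 2.02 with the 2 genes at 0 UMIs in a group set at their bound, and 20 and 19 were higher without the mural or fibroblast-marked cells and on even depth. Irf7 rose from 112 and 60.3 CPM to 1451 and 1365, a difference of 4.01 ± 0.29 (adjusted p = 5.98e-06). Ifit1, which binds viral RNA, rose from 50.9 and 30.8 to 669.6 and 534 CPM, a difference of 3.75 ± 0.30 (adjusted p = 1.26e-05). The difference between the models in these responses did not pass the test (adjusted p = 0.848 for Irf7 and 0.989 for Ifit1 by the interaction below). Ccl5 had 1 UMI after PBS and 1399 and 149 CPM after cGAMP, 678-fold by UMIs with a counting interval of 121 to 26808, and its cGAMP libraries were far apart. Phf11b, an interferon-response gene, rose from 8.53 and 7.95 to 174 and 122 CPM (adjusted p = 3.54e-05).

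Fewer interferon-gamma and antigen presentation genes were called here. Of 25 tested 4 were higher, Cd274 (the checkpoint ligand PD-L1), B2m, H2-D1 and H2-K1, and none lower, with a median of 0.44, and 3 and 4 were higher without the marked cells and on even depth. B2m rose from 3499 and 2986 to 5948 and 6541 CPM (0.95 ± 0.11, adjusted p = 0.000545), and H2-D1, an MHC class I heavy chain, from 8240 and 7139 to 13488 and 13795 CPM (0.83 ± 0.09, adjusted p = 0.000155). Cd74 read 368 and 564 CPM after PBS and 460.2 and 141 after cGAMP, and Cxcl10 322 and 195 and then 552 and 253, and neither passed the test. The class I chain genes B2m, H2-D1 and H2-K1 thus passed, whereas Tap1, Tap2, Psmb8, Psmb9, Psmb10 and Nlrc5 of the same list did not. Cd74 and Cxcl10 overlapped between the groups.

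Apoe again fell, from 935 and 1021 to 268 and 279.6 CPM with no overlap, as was so for 24.2% of all genes on the lower side (-1.82 ± 0.15, adjusted p = 1.91e-05), and was called in all 22 alternatives. Fabp4 and Scarb1, a receptor for high-density lipoprotein, were lower among 14 uptake genes with a list median of -0.36, Fabp4 by -0.63 ± 0.11 (adjusted p = 0.011) and Scarb1 by -0.99 ± 0.16 (adjusted p = 0.00551). Without the marked cells Fabp4 had an adjusted p of 0.0532, and on even depth neither was called (0.309 and 0.0692). Mgll was the only triglyceride gene called of 13, from 1434 and 1614 to 821 and 942 CPM (-0.79 ± 0.11, adjusted p = 0.00205, and 0.177 on even depth). Pltp was lower as well, by -1.53 ± 0.32 (adjusted p = 0.0323), and 0.08 without the marked cells. Of 14 genes of PPAR signalling and fatty acid oxidation and of 12 of insulin and IGF signalling none was called. On even depth Igfbp3, Insr and Igf1r were lower, by -2.77, -1.45 and -1.35.

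Among 19 capillary genes Sparcl1, Cdh13 and Cd300lg were lower and none higher, with a median of -0.34, and 1 was lower without the marked cells and 2 on even depth. Sparcl1, a matrix-associated glycoprotein, fell from 1365 and 1295 to 626 and 593 CPM (-1.12 ± 0.13, adjusted p = 0.000342) and was called in all 22 alternatives. Vwf, the clotting factor carrier of large and venous ECs, was lower at 72.0 and 58.4 CPM against 252 and 190.1 (-1.68 ± 0.33, adjusted p = 0.0245). Glycam1, an L-selectin ligand of lymph node venules, read 214 and 101 CPM after PBS and 1.74 and 1.48 after cGAMP, and rested on 5 of 53 and 8 of 42 cells, of which single cells held up to 212 UMIs. Il1b, an inflammatory cytokine of myeloid cells, had 0 UMIs after PBS and 194 after cGAMP, at least 70-fold higher by the floor of 3 UMIs, but these lay in 2 of 46 and 2 of 36 cells and 64 of them in a single cell of each library. Meox1, a homeobox relative of the gate marker Meox2, fell by 1.59 on the log2 scale (adjusted p = 0.0346).

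The count of 126 was 326 without either spontaneous PBS replicate 1 or 2, 75 and 80 without spontaneous cGAMP replicate 1 and 2, 47 and 40 without implanted PBS replicate 1 and 2, and 45 and 47 without implanted cGAMP replicate 1 and 2. Of the 126 calls, 90 were shared with the 99 made without the marked cells and 70 with the 111 on even depth. The 328 calls in spontaneous and 126 in implanted tumours shared 76 genes, 65 higher and 11 lower in both. They compare different libraries, but come from a single fit of all 8 libraries with a shared estimate of the spread, so their overlap is not independent. The shared genes were 23.2% of the spontaneous and 60.3% of the implanted calls. Of all genes tested, 3.55% were called in spontaneous and 1.36% in implanted tumours.

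**Figure D4:**
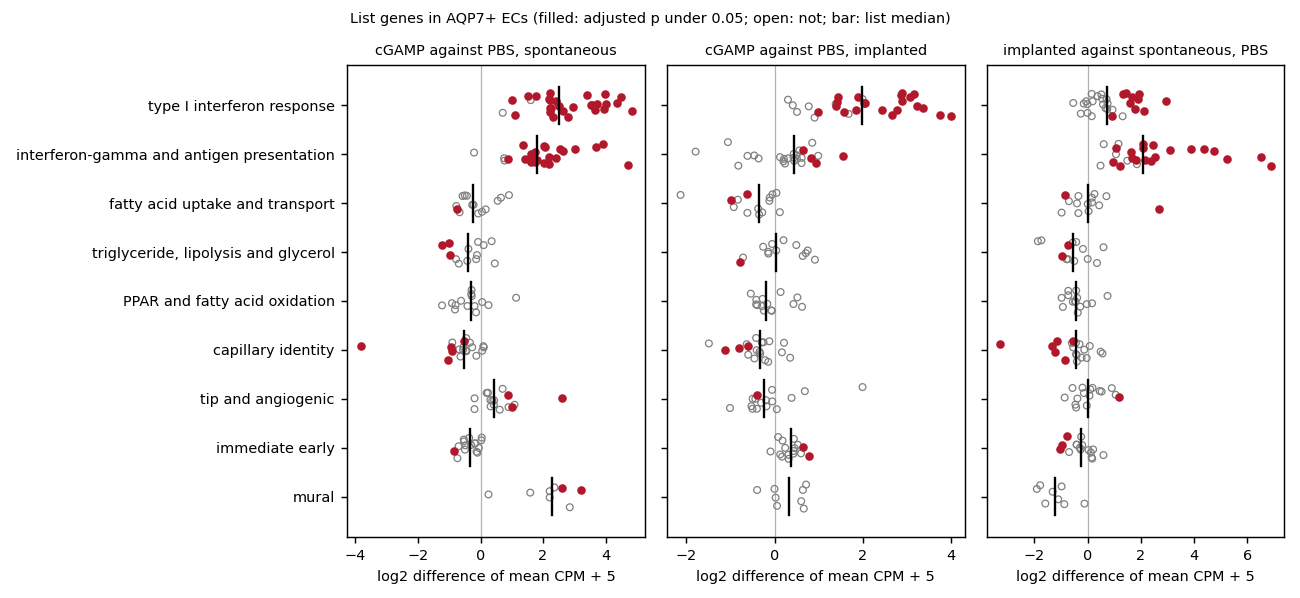
Log2 difference of each gene of 9 lists in AQP7+ ECs for cGAMP against PBS in spontaneous tumours, for the same in implanted tumours, and for implanted against spontaneous tumours after PBS (filled red, adjusted p under 0.05, open grey, not called, bar at the list median). The type I interferon genes lie to the right of 0 after cGAMP in both models with medians of 2.52 and 2.0, the interferon-gamma list has medians of 1.82, 0.44 and 2.07, and the lipid and capillary lists lie around or just to the left of 0.

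Whether the response differed between the models was tested by the interaction, that is the log2 response in implanted minus that in spontaneous tumours. Of 9237 genes, 11 (0.119%) were higher and 26 (0.281%) lower in this difference, 0.401% in all. Of 25 interferon-gamma and antigen presentation genes 8 were lower, that is had a smaller or an opposite response in implanted tumours, and none higher, with a median of -1.55 against -0.05 over all genes. All 8 rose in spontaneous tumours, and in implanted tumours H2-K1 alone passed. The count was 3 without the mural or fibroblast-marked cells, 3 without cells holding markers of any other type and 9 on even depth. Cxcl9 had a difference of -3.24 ± 0.43 (adjusted p = 0.00541) and Cxcl10 of -4.15 ± 0.55 (adjusted p = 0.00541), and Cxcl9 was called without the marked cells and on even depth (0.0448 and 0.000403) while Cxcl10 had 0.0543 and 0.000159. Of 29 type I interferon genes Irgm1 and Oasl2 were lower, with a median of -0.71, and 0 were lower without the marked cells and 9 on even depth. Timp4 had a difference of 4.18 ± 0.41 (adjusted p = 0.000952), since it fell in spontaneous tumours and read 23.7 and 43.2 CPM after PBS and 48.4 and 37.4 after cGAMP in implanted ones. Of the 17 Timp4 UMIs of implanted cGAMP replicate 1, 15 lay in a single cell. Id1, a repressor of differentiation that BMP signals induce, went from 790.1 and 725 to 376 and 283 CPM in spontaneous tumours and from 503 and 557 to 831 and 806 in implanted ones (1.83 ± 0.21, adjusted p = 0.00276). Plvap differed by -1.18 ± 0.16 (adjusted p = 0.00598). It read 767 and 696 and then 1427 and 1277 CPM in spontaneous tumours, and 1763 and 1588 and then 1387 and 1324 in implanted ones. No tip gene was called in this difference without cells holding markers of any other type.

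Most interaction calls depended on the cells or libraries used. Without the mural or fibroblast-marked cells 15 genes were called, 14 of them among the 37, and on even depth 33, of which 15 were shared. The count was 163 and 387 without spontaneous PBS replicate 1 and 2, 18 and 9 without spontaneous cGAMP replicate 1 and 2, 5 and 18 without implanted PBS replicate 1 and 2, and 11 and 4 without implanted cGAMP replicate 1 and 2. Timp4 and Id1 were called in 20 of the 22 alternatives each.

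After PBS, AQP7+ ECs of implanted tumours were compared with those of spontaneous tumours. Of 9237 genes, 113 (1.22%) were higher and 62 (0.671%) lower in implanted tumours, 1.89% in all. Without cells holding 3 or more markers of any other type 43 genes were called, and 40 of these were among the 175 called here (22.9% of the 175). The interferon-gamma and antigen presentation genes led, with 19 of 25 higher and none lower, a median of 2.07 (1.86 with 4 genes at their bound) against -0.02 over all genes, and 19 and 20 higher without the marked cells and on even depth. Without cells holding markers of any other type 13 were higher. Cxcl9 read 49.1 and 120.5 CPM in spontaneous and 1393 and 2066 in implanted tumours, a difference of 4.37 ± 0.31 (adjusted p = 3.95e-06). Cd74 and H2-Ab1, a chain of MHC class II, had 0 UMIs in spontaneous PBS and read 368 and 564, and 120.4 and 141 CPM in implanted PBS, at least 117-fold and at least 32.0-fold higher by the floor of 3 UMIs. Ubd, a ubiquitin-like protein induced by interferon-gamma and TNF, read 0 and 5.63 against 968 and 761 CPM, from 1 UMI to 2316, with an adjusted p of 4.21e-05. Of 29 type I interferon genes 10 were higher and none lower, with a median of 0.72, and 8 and 15 were higher without the marked cells and on even depth. The count was 4 without cells holding markers of any other type. The groups did not overlap for Cxcl9, Cd74, H2-Ab1 or Ubd, as was so on the higher side for 19.6% of all genes. Other ECs differed in the same direction for Cxcl9, Cd74 and Ubd, so these differences were not particular to AQP7+ ECs. Cxcl9 read 31.7 and 18.2 against 1769 and 800 CPM there, Cd74 15.2 and 22.3 against 640 and 230, and Ubd 7.83 and 3.19 against 649 and 343.

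**Figure D5:**
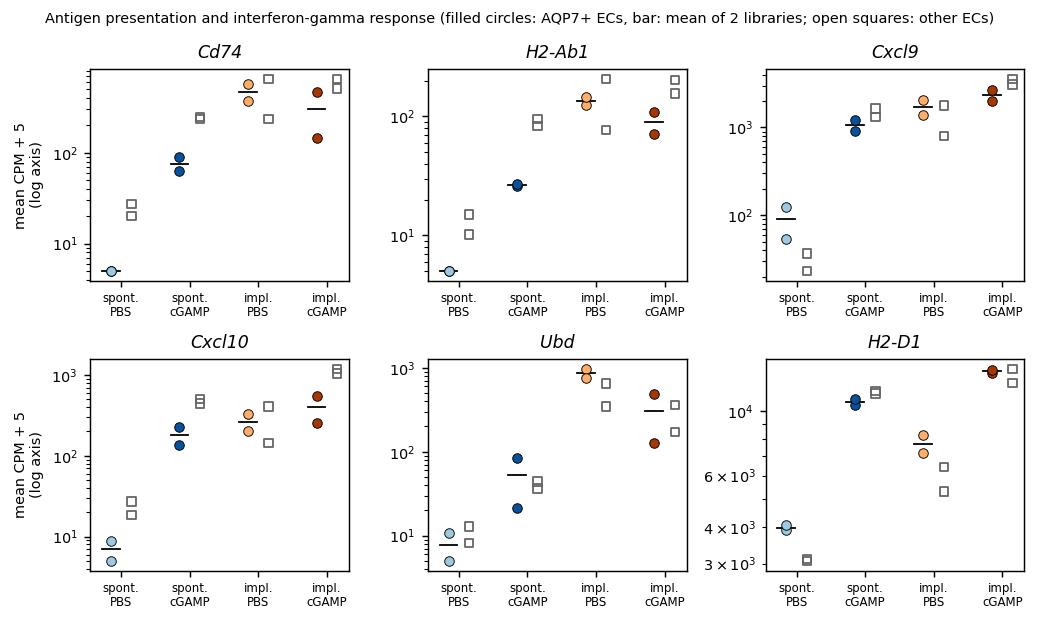
Mean level of 6 genes of interferon-gamma response and antigen presentation in AQP7+ ECs (filled circles, 1 per library, bar at the mean of 2) and in other ECs (open squares), on a log axis of CPM + 5. Cd74 and H2-Ab1 are at 0 CPM in AQP7+ ECs of spontaneous PBS and at 368 and 564, and 120.4 and 141 CPM in implanted PBS, and Cxcl9 rises after cGAMP in spontaneous tumours from a lower start.

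A minority of capillary and lipolysis genes were lower in implanted tumours. Of 19 capillary genes Timp4, Rbp7, Rgcc, Btnl9, Gpihbp1 and Ptprb were lower and none higher, with a median of -0.43, and 6 were lower without the marked cells and also on even depth. Without cells holding markers of any other type 2 capillary genes and 0 triglyceride genes were lower. Timp4 read 364 and 349 against 23.7 and 43.2 CPM (-3.28 ± 0.29, adjusted p = 4.21e-05). Rbp7 read 4386 and 3554 against 1463 and 1636 CPM (-1.35 ± 0.15, adjusted p = 0.000173), and Gpihbp1 1956 and 2545 against 1150 and 1344 CPM (-0.84 ± 0.14, adjusted p = 0.00546). Both had non-overlapping libraries and both passed without the marked cells and on even depth. Gpihbp1 was not called without cells holding markers of any other type. In other ECs Rbp7 read 979 and 1338 against 514 and 728 CPM, and Gpihbp1 880 and 1232 against 744 and 680 CPM. Among 13 triglyceride genes Mgll and Pnpla2 were lower, with a list median of -0.56, Mgll by -0.74 ± 0.11 (adjusted p = 0.00328) and Pnpla2 by -0.98 ± 0.20 (adjusted p = 0.0251, and 0.784 on even depth). Of 14 uptake genes Gpihbp1 was lower and Vldlr, a lipoprotein receptor with 0 UMIs in spontaneous PBS, was at least 7.19-fold higher and not called on even depth. Of 14 genes of PPAR signalling and fatty acid oxidation none was called, with a median of -0.44.

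Other groups differed in fewer members. Ednrb, the endothelin B receptor, was lower in implanted tumours at 67.8 and 92.8 against 325 and 552 CPM (-2.34 ± 0.26, adjusted p = 0.000234). The gene 8430408G22Rik, known as Depp1, was lower at 161 and 175 against 948 and 1157 CPM (-2.60 ± 0.25, adjusted p = 7.65e-05). In other ECs of implanted tumours Ednrb read 137 and 165 against 284 and 384 CPM, and Depp1 209 and 289 against 331 and 411 CPM. Of 8 venous genes Sele, Vcam1 and Lrg1 were higher, with a median of 1.35, against 1 without the marked cells and 4 on even depth. Vcam1, the leucocyte adhesion molecule, read 62.4 and 49.5 against 229 and 181 CPM (1.79 ± 0.25, adjusted p = 0.00181). Plvap of 16 tip genes was higher (1.19 ± 0.11, adjusted p = 7.65e-05), and no tip gene was called without cells holding markers of any other type. The count of 175 was 642 and 760 without spontaneous PBS replicate 1 and 2, and 39 and 71 without implanted PBS replicate 1 and 2, and 129 of the 175 were shared with the 137 called without the marked cells and 108 with the 148 on even depth.

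Last, the cGAMP response of AQP7+ ECs was set against that of other ECs of the same libraries, as the mean over both models. Of 9490 genes 0% were called by limma in either direction, with 1118 at an unadjusted p under 0.05 and a lowest adjusted p of 0.202. The count was also 0 without the marked cells and on even depth, and was 11 with 20 CPM added before the log, 8 with a filter at 50 CPM and 12 with at least 3 markers. Irf7 read 19.2 and 27.9 CPM in other ECs of spontaneous PBS and 1399 and 1395 after cGAMP. In implanted tumours it read 102 and 66.8 and then 1361 and 1526 CPM in other ECs. In spontaneous PBS the AQP7+ ECs started higher for Irf7, from 12 and 10 UMIs. After cGAMP both spontaneous libraries of AQP7+ ECs read above other ECs. The response of Irf7 in AQP7+ ECs differed by -0.66 on the log2 scale, with a 95% interval of -1.36 to 0.05. That of Isg15 differed by -0.27 (-0.73 to 0.19) and that of Ifit3 by -0.36 (-1.14 to 0.42). Apoe differed by -0.77 (-1.27 to -0.28, adjusted p = 0.315) and Cxcl9 by -1.50 (-2.69 to -0.31, adjusted p = 0.357). Ccl5 after cGAMP read 879.6, 633, 1399 and 149 CPM in AQP7+ ECs and 2058, 1339, 2445 and 1993 in other ECs, a difference in response of -1.73 (-3.24 to -0.22, adjusted p = 0.381). All 29 type I interferon genes and all 25 interferon-gamma and antigen presentation genes had negative differences, and none of them passed. Their medians were -0.48 and -0.63 against 0.06 over all genes. The share of negative differences over all genes is not given here, and a negative difference can come from a higher start after PBS. The intervals are wide enough that responses of AQP7+ and other ECs are not shown to be equal.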

How the data were processed

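Single-cell RNA sequencing (10x Genomics 3' v3) was deposited as 8 matrices of natural log values, which the authors made with Cell Ranger 3.0.0 and Seurat 3.1.1 (mm10) as ln(1 + UMIs x 10000 / total UMIs of the cell), after removing cells with fewer than 500 genes or over 10% mitochondrial UMIs and genes found in fewer than 3 cells. UMIs were worked back from these values, and 100% of them were whole to within 0.01. Libraries held 654 to 2025 cells with median depths of 2014 to 13148 UMIs. No doublet caller was run, and how the deposited cells were chosen is not given in the sources used here.

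A level was the mean CPM over the chosen cells of a library. Genes that reached 10 CPM in 2 or more libraries were fitted as log2(CPM + 5) with limma 3.58.1 (R 4.3.3, empirical Bayes with trend), with the 4 groups of 2 libraries in a single fit, Benjamini-Hochberg adjustment over all genes tested and a threshold of 0.05. No count test was used. The 10 genes of the gate were left out of the tests. The fit was tested on simulated library counts, which did not include the uneven spread of UMIs between the cells of a library. P-values measure the spread between libraries, which no label ties to separate mice. Library replicate numbers were compared across groups, with correlations of -0.035 to 0.023, so the numbers did not pair the libraries.

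Named genes were the 8 with the largest change in each direction among those called, with at least 20 CPM and no overlap between groups, up to 4 called members per list and direction, and the 20 highest and 10 lowest genes of AQP7+ against other ECs. Genes named beside these were chosen after their values were seen. The members and lists were chosen with earlier results of these data known. Intervals and floors cover counting error only.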

Additional observations from a re-analysis of the deposited data

Results flagged for a closer look

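In AQP7+ ECs, 24 named genes responded differently to cGAMP in implanted and spontaneous tumours by limma's test of the difference (adjusted p from 0.000952 to 0.0482). The values are log2 responses in implanted minus those in spontaneous tumours. The difference was positive for Timp4 (4.18), Il1b (3.95), Alpl (3.04), Sema3g (2.02), Id1 (1.83), Clic5 (1.61), Cdkn1a (1.56), Btg2 (1.17) and Zfp36 (1.13). Btg2 and Zfp36 are immediate early genes, and Cdkn1a is an inhibitor of the cell cycle. The difference was negative for Serpina3g (-5.37), Cd74 (-4.72), Serpina1b (-4.40), Cxcl10 (-4.15), Mgp (-4.13), Serpina3f (-4.09), Cxcl9 (-3.24), Gm4951 (-3.06), H2-Ab1 (-3.01), Irgm1 (-1.74), Oasl2 (-1.61), Sparcl1 (-1.22), Plvap (-1.18), Col4a1 (-0.93) and Sparc (-0.60). Col4a1 and Sparc are matrix genes. Cd74, H2-Ab1, Serpina3f and Serpina3g had 0 UMIs in spontaneous PBS and Il1b 0 in both PBS groups, so these fitted values depend on the 5 CPM added before the log. Il1b rested on 4 cells of implanted cGAMP.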

How the results depend on the processing

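The counts of genes called in AQP7+ ECs moved with the cells and settings used, and the cause was not tested. In the report they were 328 for cGAMP in spontaneous tumours (S), 126 for cGAMP in implanted tumours (I), 37 for the interaction (X), 175 for implanted against spontaneous after PBS (P) and 0 for AQP7+ against other ECs (O). Without a filter on low values they were 180 (S), 72 (I), 0 (X) and 77 (P). With at least 3 of the 6 markers they were 670 (S), 454 (I), 559 (P) and 12 (O), and with at least 5 they were 121 (S), 75 (I), 14 (X) and 56 (P), where spontaneous PBS replicate 1, with 6 such cells, was dropped from the fit. With cells thinned to 4000 UMIs they were 140 (S), 46 (I), 17 (X) and 89 (P). Without cells holding 3 or more markers of another type they were 47 (I), 9 (X) and 43 (P). Weighting by cells gave 244 (I) and 63 (X), summed UMIs 82 (I), a pseudocount of 1 CPM 23 (X), a pseudocount of 20 CPM 11 (O) and a filter at 50 CPM 8 (O). Chosen after seeing the data, leaving out mural or fibroblast-marked cells gave 15 (X), and the gate on 4000 drawn UMIs gave 215 (S). Leaving out 1 library at a time gave 114 to 1239 (S), 40 to 326 (I), 4 to 387 (X), 39 to 760 (P) and 0 to 0 (O).

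With the replicate number as a block the counts were 328, 126, 38, 181 and 0, and the numbers did not pair the libraries. Of 2830 values of 130 results on named genes under 22 alternatives, 2032 kept their side of the threshold, 796 kept their direction and no longer passed, and 2 turned direction, both for Mgp. These were -0.64 after cGAMP in spontaneous tumours with the gate on 4000 drawn UMIs and 0.50 in the interaction with at least 5 markers. With 19 and 26 AQP7+ ECs in the spontaneous PBS libraries, genes near 5 CPM rested on few UMIs there.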
